A study of Mus musculus with 6 samples.

Results

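The genes described are 10 sensors of double-stranded RNA and their adaptors: Ddx58, Ifih1, Dhx58, Mavs, Tlr3, Eif2ak2, Irf3, Irf9, Adar and Prkra. Every probe set that the platform annotation assigned to exactly 1 of these genes was taken, which gave 24 of the 45037 probe sets tested, and every gene had at least 1. RNA came from mouse embryonic stem cells of the Oct4-Gip line, cultured with fetal serum and the self-renewal cytokine LIF. For transfection, 60000 cells were lipofected with 800 ng of esiRNA (short duplex RNAs prepared by enzyme digestion) directed either against the long noncoding RNA Panct1 (3 arrays) or against Luciferase (3 arrays, the control), and RNA was taken 72 hours later on Affymetrix Mouse 430 version 2 arrays. Both groups therefore received double-stranded RNA and lipid. Arrays of cells without any transfection were not analysed here, so the comparison is between esiRNAs and does not measure a response to transfected RNA as such.

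Cells read double-stranded RNA as a sign of virus infection. In the cytosol the helicases RIG-I (Ddx58) and MDA5 (Ifih1) bind it and signal through the mitochondrial protein MAVS to the transcription factor IRF3. TLR3, in endosomes, also leads to IRF3, which switches on type I interferon. Interferon then acts through a complex that contains IRF9 to raise a wide set of antiviral genes, several of the sensors among them, while the kinase PKR (Eif2ak2) stops translation and ADAR edits double-stranded RNA so that it is no longer sensed. Embryonic stem cells are known for a weak interferon response.

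The interferon-stimulated response element, bound by the IRF9 complex and by IRF factors, was searched as GAAA, 2 bases of any kind and GAAA again, on both strands, in RefSeq promoter windows of GRCm38.p6, each with 250 bases before and 50 after an annotated start. A window was found for 9 of the 10 genes. The element was present for Ddx58, Ifih1 and Eif2ak2. Of all 32851 windows 3.44% hold it, and 3.99% of all 27025 genes have it in at least 1 window. The sites are shown because they stand close to the start in genes that went lower, higher and past no threshold in the comparison below. Each is written 5′ to 3′ along the gene, 30 bases long, with the matched element in capitals; that of Ddx58 lies on the opposite strand.
Ddx58, chr4:40239804-40239833, minus strand: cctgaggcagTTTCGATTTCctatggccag
Ifih1, chr2:62646206-62646235, minus strand: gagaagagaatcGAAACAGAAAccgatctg
Eif2ak2, chr17:78882535-78882564, minus strand: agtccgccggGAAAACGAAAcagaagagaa
The matches start at base 3 (Ddx58), base 33 (Ifih1) and base 19 (Eif2ak2) of the transcribed part, counted from 1 at the start. The shorter element of STAT dimers, TTCNNNGAA, which reads the same on both strands and overlaps none of these 3 matches, was found for Eif2ak2 and Adar. It is present in 8.30% of all windows and, in at least 1 window, for 9.55% of all genes.
Eif2ak2, chr17:78882731-78882760, minus strand: ctgcagagctTTCCCAGAAtggaagccagg
Adar, chr3:89730730-89730759, plus strand: gggaagccttTTCAAGGAAacgaaagtgaa
A match describes these letters and does not show that a factor binds there. Elements that depart from these letters were not searched for, so a gene without a match may still hold one.

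All signals below are log2 values from RMA, a method that corrects background, equalises the arrays and summarises the probes of a set. They do not allow levels to be compared between probe sets, and a difference of 1 is a doubling. The arrays were closely alike, with medians of 6.07 to 6.09, lower quartiles of 4.65 to 4.70 and correlations of 0.997 to 0.998 within a group and 0.991 to 0.993 between groups. Of 8 markers of embryonic stem cells, all lay above the upper quartile in both groups. Read by the brightest probe set of each gene, 4 fell and 0 rose (1 was higher at an unadjusted limma p under 0.05), where 11.3% of all genes fell. Pou5f1 fell by 0.24 (limma adjusted p = 0.0324 over genes), Zfp42 by 0.42, Esrrb by 0.50 and Utf1 by 0.20. Adjusted over all probe sets, no set of Pou5f1 or Utf1 passed, and 1 of 3 of Esrrb did. Of 8 markers of macrophages and other blood cells, 3 had group means under the lower quartile, the pan-leukocyte gene Ptprc among them at 3.90 and 4.01; 1 fell, Cd68, from 9.14 to 8.00, and the mean over the list ranged from 5.55 to 5.61 on the control arrays and from 5.43 to 5.45 on the knockdown arrays. Of 8 fibroblast markers 2 rose, Col1a1 and Col3a1, where 12.9% of all genes rose. The list means were 5.54 to 5.62 on the control arrays and 5.69 to 5.71 on the knockdown arrays. Col1a1 rose by 0.28, and Col3a1 by 0.63 from a control mean of 4.50, under the lower quartile. Over all probe sets 1 of 2 sets of each passed higher, and the other sets differed by 0.08 and 0.11. The part of any such cells in the results was not tested. Panct1 itself is not named among the probe sets, so its depletion was not analysed here.

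The helicases split. Ddx58 fell and Ifih1 rose after Panct1 esiRNA, while Dhx58 passed in neither direction. The adaptor Mavs and the interferon signal factor Irf9 fell, and Prkra, which encodes the PKR activator PACT, rose. Tlr3, Eif2ak2, Irf3 and Adar did not pass. In all, 7 of the 24 probe sets passed limma's adjusted p under 0.05, 2 higher and 5 lower, where 14.6% of all probe sets passed (7.82% higher and 6.76% lower). With 1 probe set per gene, the brightest, 5 of the 10 genes passed, against 24.2% of all 18193 genes. Knockdown and control arrays lay apart, without overlap, for 10 of the 24 probe sets, against 30.4% over all, and for 7 of the 10 genes, against 38.3% of all genes. The median difference over the 24 was -0.07 and over all probe sets -0.02. In bulk RNA, fewer cells that carry a transcript and less of it per cell cannot be told apart.

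**Figure D1:**
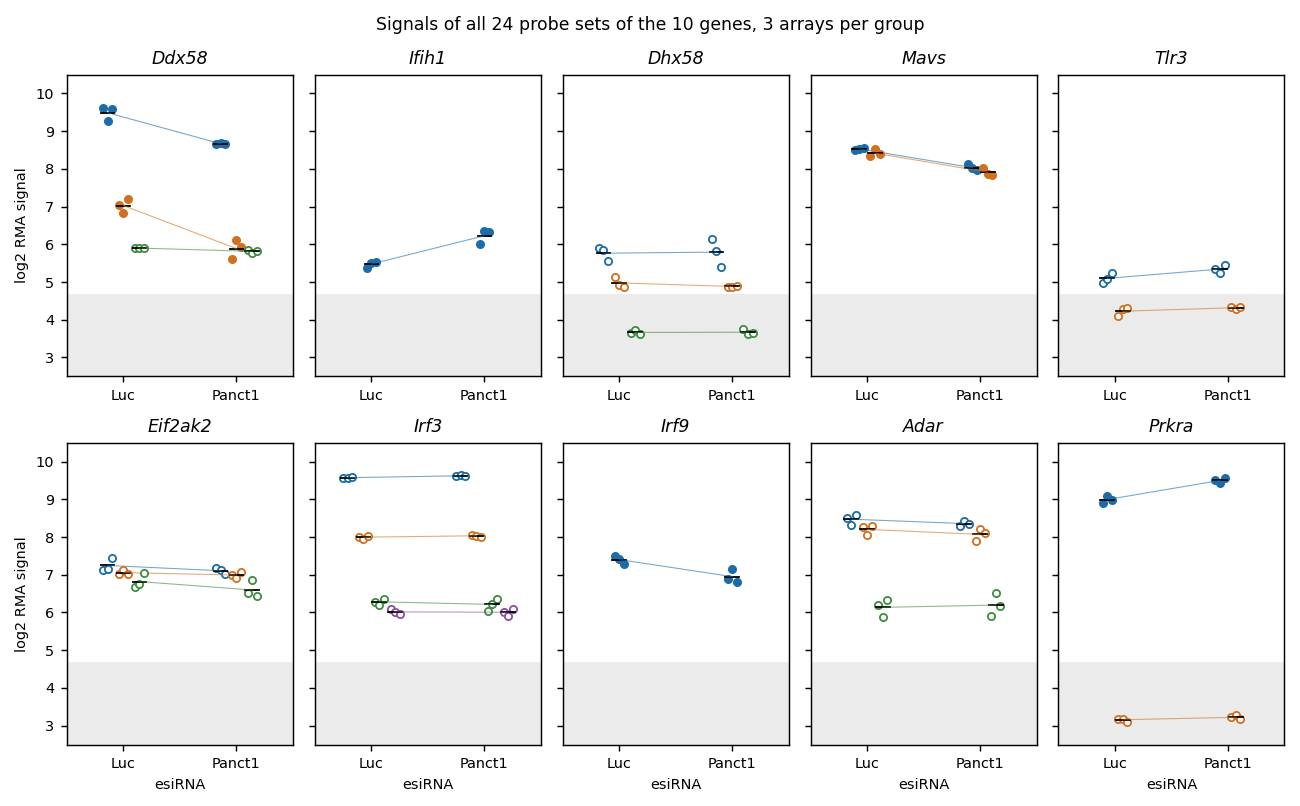
Log2 RMA signal (vertical axis) of all 24 probe sets on the 3 Luciferase (Luc) and 3 Panct1 esiRNA arrays, 1 panel per gene and 1 colour per probe set; circles are arrays, bars are group means and filled circles mark probe sets past limma's adjusted p of 0.05. The grey band lies below the arrays' lower quartile. Both filled sets of Ddx58 and of Mavs and the set of Irf9 drop from Luc to Panct1, and the sets of Ifih1 and the brighter of Prkra climb.

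RIG-I, encoded by Ddx58, binds short double-stranded RNA with a triphosphate or blunt end. Its brightest probe set, 1436562_at, gave 9.60, 9.28 and 9.58 on the control arrays and 8.66, 8.69 and 8.65 on the Panct1 arrays. The control arrays were all higher, and the knockdown arrays lay within a much narrower span. The gene fell by 0.82 (SE 0.09; limma adjusted p = 6.50e-04), a 1.77-fold difference, from 9.49 ± 0.18 (SD, n = 3) to 8.67 ± 0.02. The probe set 1456890_at gave 7.04, 6.84 and 7.20 in controls and 5.61, 6.12 and 5.93 in knockdown, and it fell by 1.14 (adjusted p = 8.85e-04 in limma), 2.20-fold. The third, 1446457_at, lay below the arrays' median, at 5.90, 5.91 and 5.89 against 5.86, 5.77 and 5.81. It differed by -0.09, and its 95% interval of -0.23 to 0.06 does not reach the differences of the other sets.

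MDA5, encoded by Ifih1, recognises long double-stranded RNA. Its only probe set, 1426276_at, gave 5.38, 5.51 and 5.54 in controls and 6.01, 6.35 and 6.32 in knockdown. Every knockdown array was above every control array. The gene rose by 0.75 (SE 0.10; limma adjusted p = 0.00157), 1.68-fold, from 5.48 ± 0.09 (SD, n = 3), which lies below the arrays' median, to 6.23 ± 0.19. The pair of helicases was chosen for its opposite directions, so the contrast between them is a description with no test. The signal of Ifih1 minus that of the brightest Ddx58 set, taken within each array, averaged 1.57 higher in knockdown than in controls. The 3 knockdown arrays stood at 1.36, 1.67 and 1.68 above the control mean of that contrast, and the control arrays at -0.21, 0.24 and -0.03.

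LGP2, encoded by Dhx58, is the helicase of this family that lacks the signalling domain and tunes the other two. Its brightest probe set, 1451426_at, gave 5.89, 5.85 and 5.55 in controls and 6.15, 5.82 and 5.41 in knockdown. These groups overlapped, and the knockdown spread (SD 0.37) was the widest of all 24 probe sets. The difference was 0.03 with a 95% interval of -0.37 to 0.43, so a change of up to about that size in either direction was not detectable with 3 arrays per group. The probe sets 1420769_at and 1420768_a_at differed by -0.09 (-0.28 to 0.09) and 0.01 (-0.16 to 0.17), the latter from signals of 3.61 to 3.75, below the lower quartile. All 3 sets of Dhx58 lay below the arrays' median in both groups.

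MAVS is the mitochondrial adaptor that RIG-I and MDA5 share. The probe set 1451176_at gave 8.51, 8.52 and 8.56 in controls and 8.13, 8.01 and 7.96 in knockdown, with no overlap. It fell by 0.50 (SE 0.07; limma adjusted p = 0.00200), 1.41-fold. The other, 1439185_x_at, gave 8.34, 8.52 and 8.39 against 8.03, 7.87 and 7.83 and fell by 0.51 (adjusted p = 0.00398 in limma). Mavs was the gene with all of several probe sets past the threshold in 1 direction, and its sets gave nearly the same size.

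TLR3, the endosomal receptor, was dim. Its probe set 1422782_s_at gave 4.98, 5.08 and 5.23 in controls and 5.34, 5.24 and 5.45 in knockdown. The lowest knockdown array stood just above the highest control array. The difference of 0.25 (95% interval 0.05 to 0.45) did not pass after adjustment (limma adjusted p = 0.107, or 0.0691 over 1 probe set per gene). Over genes it passed when Luciferase control replicate 3 was left out, at 0.0391 (0.0391 to 0.452 over all settings). The second set, 1422781_at, lay below the lower quartile at 4.09 to 4.34 and differed by 0.09.

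**Figure D2:**
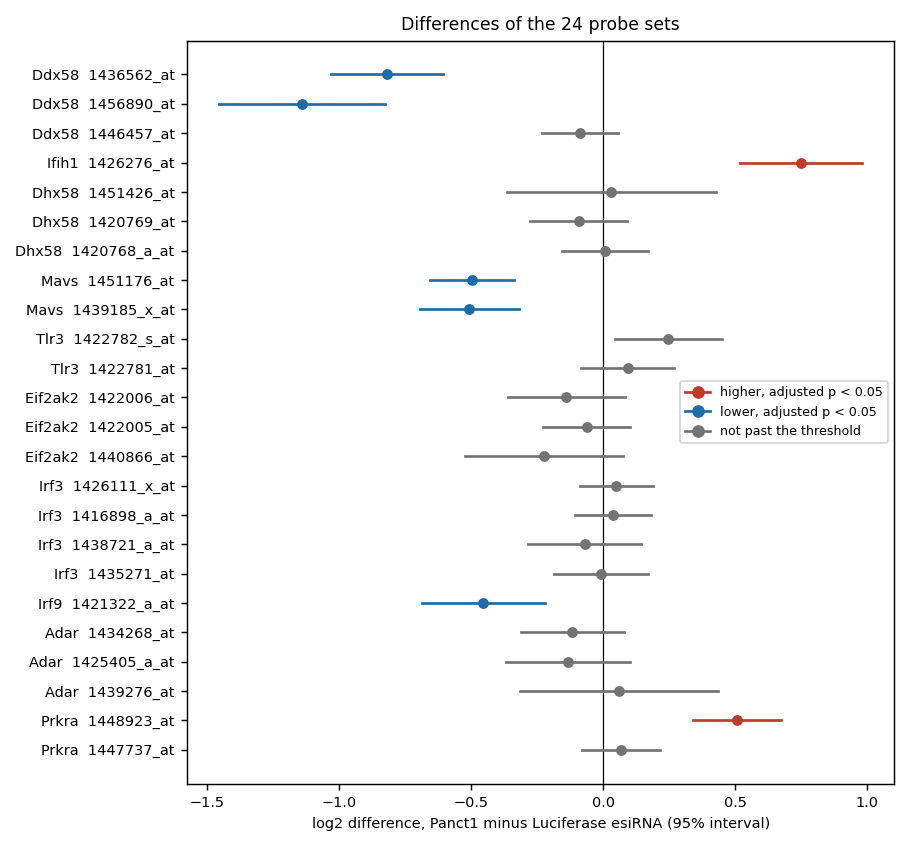
Log2 difference, Panct1 minus Luciferase esiRNA (horizontal axis), of each of the 24 probe sets with its 95% interval from limma; red and blue mark higher and lower at an adjusted p under 0.05. Ddx58 sets reach -1.14 and Ifih1 stands at 0.75, while all sets of Dhx58, Eif2ak2, Irf3 and Adar have intervals that include 0.

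IRF3 is the factor that the adaptors activate by phosphorylation, so its RNA does not report its activity. Its brightest probe set, 1426111_x_at, gave 9.57, 9.57 and 9.58 in controls and 9.62, 9.64 and 9.61 in knockdown. Both groups spanned very little, and although they did not overlap the difference was 0.05 (95% interval -0.09 to 0.19; limma adjusted p = 0.676). The other 3 probe sets differed by 0.04, -0.07 and -0.01, and the lowest and highest bounds of the 4 intervals were -0.28 and 0.19.

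IRF9 is the DNA-binding part of the complex that carries the interferon signal to its target genes. Its only probe set, 1421322_a_at, gave 7.49, 7.43 and 7.29 in controls and 6.90, 7.15 and 6.80 in knockdown. All knockdown arrays were lower, with the second nearest to the controls. The gene fell by 0.45 (SE 0.10; limma adjusted p = 0.0180), 1.37-fold. Adjusted over all probe sets, the call ended on removal of Luciferase control replicate 1 (0.0755) or 2 (0.0574), and of Panct1 knockdown replicate 1 (0.0551) or 3 (0.0601), with 0.00816 to 0.0755 over all settings. Over 1 probe set per gene the adjusted p ranged from 0.00409 to 0.0435 over the settings that could test it, but the gene missed the 1.5-fold minimum, and its probe set drops out where sets named _a_at are removed.

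PKR, encoded by Eif2ak2, phosphorylates the initiation factor eIF2 alpha when it binds double-stranded RNA. Its probe set 1422006_at gave 7.13, 7.16 and 7.45 in controls and 7.17, 7.13 and 7.02 in knockdown, and the groups overlapped. The 3 probe sets differed by -0.14, -0.06 and -0.22, and their 95% intervals together spanned -0.52 to 0.10. Prkra encodes PACT, a double-stranded RNA binding protein that activates PKR and also partners Dicer. Its probe set 1448923_at gave 8.91, 9.08 and 8.99 in controls and 9.50, 9.44 and 9.56 in knockdown, with no overlap. Prkra rose by 0.51 (SE 0.07; limma adjusted p = 0.00220), 1.42-fold, while its other set, 1447737_at, lay below the lower quartile at 3.11 to 3.27 and differed by 0.07.

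ADAR deaminates adenosine in double-stranded RNA, and an interferon-inducible and a constitutive form come from the same gene. Its brightest probe set, 1434268_at, gave 8.51, 8.32 and 8.59 in controls and 8.30, 8.43 and 8.34 in knockdown, so the groups overlapped. It differed by -0.12 (95% interval -0.31 to 0.08), and 1425405_a_at by -0.13 (-0.37 to 0.10). The third, 1439276_at, differed by 0.06 (-0.32 to 0.44) with an SD of 0.24 in controls and 0.31 in knockdown. Which form each set reads was not tested.

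For each of the 5 members past the threshold, the gene with the most similar profile was sought among 18192 other genes, as the smallest root mean square distance of mean-centred log2 values over the 6 arrays. For Ddx58 these were Crmp1 (distance 0.04) and Nlrp4f (0.05). Ifih1 was nearest to Zyx (0.03) and Crabp2 (0.04), and Mavs to Tex19.1 (0.02) and Gins3 (0.03). Irf9 was nearest to A430033K04Rik (0.06) and Ankrd34a (0.07), and Prkra to Dusp10 and Prrg3 (both 0.03). No other member of the 10 was among them.

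The signals around the sensors were read with 1 probe set per gene, against a background of 24.2% of genes called, 12.9% higher and 11.3% lower, and a median difference of -0.02. Among 29 measured cofactors and signalling proteins of the sensors, 2 rose and 2 fell, with a median of -0.01. Sting1 and Tradd, named after their values were seen, were not called by their brightest sets. Over all probe sets 1 set of each passed lower, with lowest differences of -0.49 and -0.36, and no uncalled gene of this list had a set that passed higher. Zc3hav1, the antiviral zinc finger protein ZAP, rose 2.43-fold (log2 difference 1.28, SE 0.06; limma adjusted p = 5.86e-06), from 7.75 ± 0.02 (SD, n = 3) to 9.04 ± 0.07, in 1 of 3 probe sets. Rnf125, a ubiquitin ligase that marks RIG-I, MDA5 and MAVS for degradation, fell by 0.99 (SE 0.07; limma adjusted p = 2.13e-05), from 9.76 ± 0.05 to 8.77 ± 0.07. Traf6, a ubiquitin ligase downstream of the receptors, fell by 0.41 in 1 of 5 probe sets, and Tank, a scaffold of the kinase TBK1, rose by 0.33 in 1 of 2. For Tank the call ended on removal of Luciferase control replicate 1, Panct1 knockdown replicate 2 or Panct1 knockdown replicate 3, at adjusted p of 0.0756 to 0.0835 (0.0142 to 0.775 over all settings).

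Of 11 measured genes of the interferon receptor and its signal complex, 2 rose and 2 fell. Ifnar1, named after its values were seen, was not called by its brightest set (-0.09). However, 1 of its 2 sets passed lower over all probe sets, and the lowest difference was -0.26. Tyk2, a kinase bound to the receptor, fell by 0.43 (limma adjusted p = 0.00304), in 1 of 2 probe sets. Ifnar2, a receptor chain, fell by 0.22 in its brightest set, while another of its 3 probe sets differed by 0.36 the opposite way. None of the 3 passed when adjusted over all probe sets, and their mean differed by 0.04. Usp18, an interferon-induced brake on the receptor, rose by 0.35 to 4.97, a signal below the arrays' median, and the phosphatase gene Ptpn11 rose by 0.31 in 1 of 3 sets. The Ifnar2 call ended without any array but Panct1 knockdown replicate 3 (0.0691 to 0.131; 0.0175 to 0.708 over all settings). That of Usp18 ended on removal of replicate 3 of either group (0.0853 for knockdown and 0.0815 for control; 0.0152 to 0.0853 over all settings), and that of Ptpn11 without control replicate 1 or 3 (0.0710 and 0.0501; 0.00639 to 0.198).

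Interferons and cytokines, the outputs of sensing, were mostly dim. Of 13 measured genes 0 rose and 1 fell, Il6, which fell by 0.38 from 3.95 to 3.58, below the lower quartile. At an unadjusted limma p under 0.05, 1 was higher and 1 lower. Cxcl1, named after its values were seen, was not called by its brightest set (0.09). However, 1 of its 3 probe sets passed higher over all probe sets, and the largest difference among the 3 was 0.52. Ifnb1, an interferon gene that IRF3 switches on directly, stood at 5.49 ± 0.08 (SD, n = 3) in controls and 5.51 ± 0.16 in knockdown and differed by 0.02. Cxcl10, a chemokine induced by IRF3 and interferon, differed by 0.27 (limma adjusted p = 0.0505), and it passed in 4 alternatives: without Panct1 knockdown replicate 1 (0.0168), with array weights (0.0216), without the dimmer 50% of probe sets (0.0337) and with probe sets averaged per gene (0.0435). Over all settings its adjusted p ranged from 0.0168 to 0.177. Ccl2 differed by 0.18 (adjusted p = 0.192 in limma), passing without Panct1 knockdown replicate 3 (0.0497; 0.0497 to 0.468 over all settings), and Ifng differed by -0.15 at a signal below the lower quartile.

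Of 10 measured genes around the OAS enzymes, which make the second messenger that activates RNase L, 1 rose and 0 fell (1 and 0 at an unadjusted limma p under 0.05). Oasl2 rose by 0.41 from 4.73 ± 0.16 (SD, n = 3) to 5.14 ± 0.08 (limma adjusted p = 0.0100), below the arrays' median. Oas1a, a catalytic member, stood at 8.63 ± 0.10 and 8.68 ± 0.04, and Oas2, Oasl1 and Abce1, an inhibitor of RNase L, differed by -0.16, -0.16 and -0.13.

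Interferon-stimulated genes other than the members had 13 of 36 measured genes higher and 4 lower, with a median of 0.04. The largest rises were in Gbp2, an interferon-inducible GTPase, by 2.27, Psmb8, a subunit of the immunoproteasome, by 1.39, and Gbp3 by 1.38. B2m, the light chain of MHC class I, rose by 0.83 (SE 0.08; limma adjusted p = 1.38e-04), from 10.40 ± 0.08 (SD, n = 3) to 11.23 ± 0.12. Ifit1, a cytosolic RNA binding protein and a standard readout of the interferon response, differed by -0.19 (limma adjusted p = 0.144) from a signal of 5.00. The genes that rose and Ifit1 stand on the same list, and Isg15 was not analysed here.

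Of 16 other measured double-stranded RNA binding proteins 1 rose and 1 fell by the brightest set. Ilf2, Drosha and Cdkn2aip, named after their values were seen, were not called by it. However, 1 set of each passed lower over all probe sets, with lowest differences of -0.31, -0.25 and -0.46. No uncalled gene of this list had a set that passed higher. Strbp, a relative of the interleukin enhancer binding factors, rose by 0.28 in 1 of 7 probe sets, and Adarb1, the second adenosine deaminase ADAR2, fell by 0.44 in 1 of 3. Dhx9, an RNA helicase, differed by -0.18 (limma adjusted p = 0.117), but passed with an intensity trend and robust variance (0.0309; 0.0309 to 0.299 over all settings). Dgcr8, the Drosha partner, differed by 0.20 (adjusted p = 0.0925 in limma), passing without Luciferase control replicate 3 (0.0494; 0.0494 to 0.244). Of 11 measured genes of the eIF2 alpha kinase arm 2 rose and 2 fell, and 4 rose without Panct1 knockdown replicate 1. That array gave the lowest knockdown signal for Ddit3 and Trib3, stress-induced genes of this arm named after their values were seen. Ddit3 gave 8.33, 8.17 and 8.11 in controls and 8.18, 8.72 and 9.14 in knockdown, and differed by 0.48 (limma adjusted p = 0.127). Trib3 gave 9.08, 8.63 and 8.94 against 8.18, 9.37 and 9.84, and the groups overlapped for both genes. Atf3, a stress-induced transcription factor, rose by 0.68 and the amino acid sensing kinase gene Eif2ak4 by 0.43, while the haem-regulated kinase gene Eif2ak1 fell by 0.32 in 1 of 5 probe sets. Ppp1r15a, the subunit that leads the phosphatase back to eIF2 alpha, fell by 0.32 (limma adjusted p = 0.00599). The second probe set of Eif2ak4 passed the opposite way, so its direction depends on the set.

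**Figure D3:**
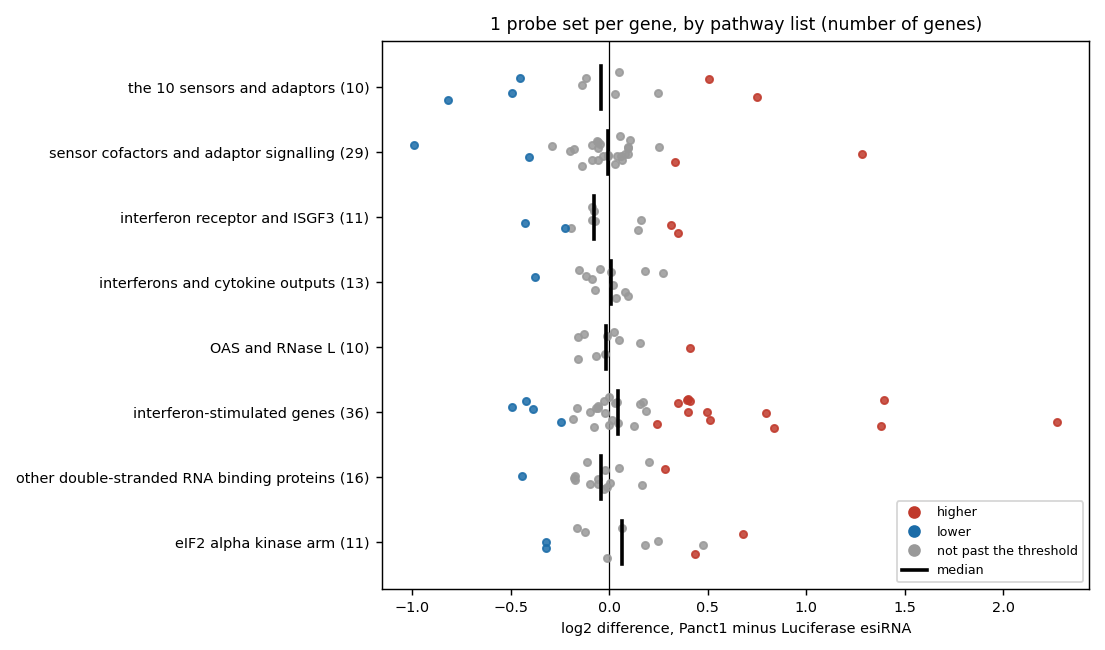
Log2 difference, Panct1 minus Luciferase esiRNA (horizontal axis), of the 10 genes and of 7 lists of related genes, 1 circle per gene from its brightest probe set; red rose, blue fell and grey did not pass, and black bars are medians. The medians of the lists lie between -0.08 and 0.06, and the widest spread is that of the interferon-stimulated genes, from -0.49 (Zbp1) to 2.27 (Gbp2).

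**Figure D4:**
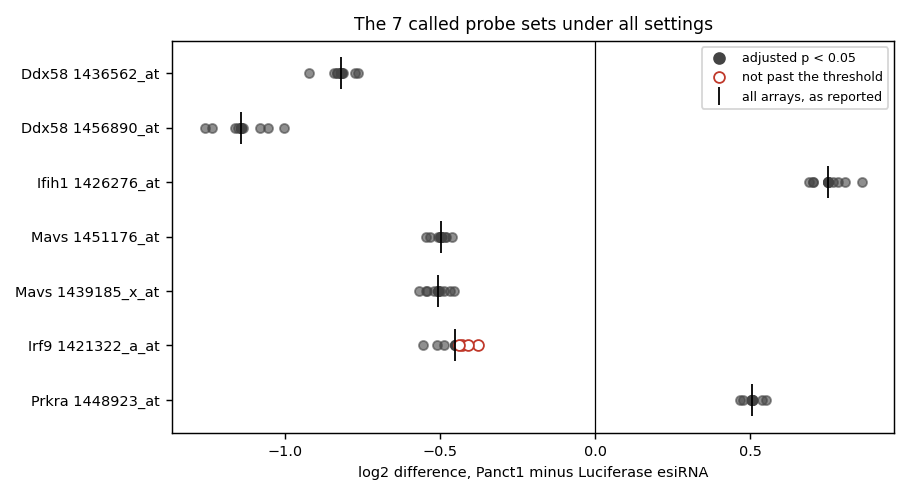
Log2 difference (horizontal axis) of the 7 called probe sets under the settings of normalisation, variance model, filter and left-out array. Vertical ticks are the reported values and open red circles are settings in which the call was lost. The differences keep their sign in all settings shown, and calls are lost in 4 of these settings, all of them for Irf9. Not shown is the 1.5-fold minimum, with which 3 of the 7 sets, those of Ddx58 and of Ifih1, stayed called. A set is also absent where a filter removes it: Ifih1 without dim sets, and Mavs 1439185_x_at and Irf9 without sets named _x_at, _s_at or _a_at.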

How the data were processed

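The authors deposited a log2 signal for each probe set on each array. GCOS 1.4 and RMA are named for it, per the submitters' processing notes, and which arrays were normalised together is not given in the sources used here. They were used as they stand. Of 45101 probe sets, 64 control sets were left out. Of the rest, 34945 had 1 gene symbol, 932 several and 9160 none listed. For 34741 probe sets the symbol was taken by gene ID from a RefSeq table (GRCm38.p6), whether or not it changed.

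Arrays were grouped by their titles. Nothing states that replicates were separate cultures, so p-values cover only how far these samples scatter, which may be technical. Differences were tested with limma 3.58.1 in R 4.3.3 (lmFit, eBayes, two-sided, Benjamini-Hochberg over all 45037 probe sets or all 18193 genes), after checking the script on simulated data. The precision of every value is limited by the number of arrays.

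The members, the 7 lists and the tests were chosen with earlier results of these data known. Named are all members, the 4 list genes with the smallest p, Ifnb1, Isg15, Ifit1, Oas1a and B2m, and the 2 genes nearest in profile. Alternatives were the replicate block, median centring, a further quantile step, robust variance with an intensity trend, and array weights. Dim probe sets, sets named _x_at, _s_at or _a_at, and each array were also left out. Further alternatives were the mean of a gene's probe sets and a 1.5-fold minimum.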

Additional observations from a re-analysis of the deposited data

How the results depend on the processing

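With a 1.5-fold minimum, 3 of the 24 probe sets stayed called (1 higher, 2 lower), 2 of the 10 genes (1 and 1), 8 list genes, 2086 of all probe sets and 1227 of all genes. Without the dimmer 50% of probe sets, that of Ifih1 drops out, leaving 1 higher probe set and 1 higher gene. Without sets named _x_at, _s_at or _a_at, 3 probe sets were lower. Leaving out 1 array gave 6 to 7 called probe sets of the 24, 5 to 6 genes and 4266 to 5574 of all probe sets, the fewest without Luciferase control replicate 1. Among called values, signs turned for Eif2ak4 and Adarb1 without sets named _x_at, _s_at or _a_at, where another probe set is read (-0.30 and 0.093). The sign also turned for Ifnar2 with the mean of probe sets (0.04). The other turned values passed no threshold. With array weights Dhx58 1420768_a_at was -0.0061 and Ifnb1 -0.021. With repeated quantile normalisation Irf3 1416898_a_at was -0.0056. With the mean of probe sets Dhx58 was -0.019, and without sets named _x_at, _s_at or _a_at Irf3 was -0.01. Leaving out 1 array, Dhx58 1451426_at ranged from -0.15 to 0.22, Dhx58 1420768_a_at from -0.033 to 0.04, Irf3 1438721_a_at from -0.15 to 0.017, Irf3 1435271_at from -0.057 to 0.043, Adar 1439276_at from -0.10 to 0.20 and Ifnb1 from -0.03 to 0.11. The cause of these changes was not tested. With the mean of probe sets the calls for Traf6, Tank, Ptpn11, Adarb1, Eif2ak1 and Eif2ak4 were lost. Of 853 single values under an alternative, 797 kept direction and side of the threshold. With the sign kept, 25 lost the call and 8 gained it, and 23 changed sign. The 1.5-fold minimum is not among these alternatives.

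Replicate numbers did not pair the arrays: deviations from group means of same-numbered arrays correlated at -0.16, -0.30 and -0.15. In the fit with the replicate block the 7 member calls were still 7 in number, all probe sets called were 4692 (1965 lower, against 3045), and of the named list genes Ifnar2 (adjusted p = 0.0977 in limma) and Usp18 (0.0566) no longer passed. No array correlated best with that of its own number.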

Other observations

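Further interferon-stimulated genes, chosen after their values were seen, ran in both directions. The proteasome subunit gene Psmb9, the peptide transporter gene Tap1 and Irf1, a transcription factor of interferon gamma signalling, rose by 0.79, 0.51 and 0.40 (limma adjusted p = 0.00109, 0.00143 and 0.00367), and the GTPase genes Irgm1 and Igtp by 0.41 and 0.39. Rtp4, Herc6, Trim21 and Usp18, interferon-induced genes, rose too, by 0.50, 0.40, 0.24 and 0.35 (limma adjusted p = 0.0106, 0.0357, 0.0417 and 0.0278). These values are from the brightest set of each gene. Over all probe sets, 1 of 2 sets of Rtp4, 1 of 4 of Herc6, 1 of 4 of Tap1 and 0 of 2 of Trim21 passed higher. The other set of Rtp4 differed by -0.08. Zbp1, a sensor of left-handed double-stranded nucleic acid, fell by 0.49 (adjusted p = 0.00289 in limma), and the membrane proteins Ifitm2 and Ifitm3 fell by 0.42 and fell by 0.39 from high signals of 12.50 ± 0.12 and 12.88 ± 0.04 (SD, n = 3). The nuclear body gene Sp100 fell by 0.25. Zbp1 and Sp100 each passed lower in 1 of 2 probe sets. Of the antiviral genes usually read as a type I interferon response, Ifit2 differed by 0.04, Rsad2 by -0.07, Irf7 by -0.06 and Mx1 by -0.10. None of these passed, nor did Ifit3, Mx2, Xaf1, Stat2 and Bst2. Usp18 and Rtp4 above and Oasl2 (0.41, adjusted p = 0.0100 in limma), which are read the same way, did pass. Cmpk2 and Trim30a were not called by their brightest sets, but 1 of 2 sets of each passed higher over all probe sets. Their highest differences were 0.35 and 0.41. B2m, whose mRNA the labels name as a qPCR reference, was among the genes that rose.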
